A study of Mus musculus with 28 samples.

Results

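Expression arrays of JygMC(A) mouse mammary carcinoma cells grown as 3D spheres and as a monolayer were compared. The members were taken from the source names: 1 array was labelled 3D spheres cell line and 1 was labelled Monolayer cell line, 2 of the 28 arrays of the series. The other arrays came from primary tumors (PT, 11 arrays), lung metastases (9 arrays), normal mammary gland (3 arrays) and normal lung (3 arrays) of Balb/C nude mice, which lack most T cells. For the PT, 50000 JygMC(A) cells were injected into a mammary gland and the tumor was taken at 30 days. The labels give no treatment for any group. The study's methods describe a line that carries a GFP and luciferase reporter and that was maintained in DMEM with fetal bovine serum. The medium, substrate and age of the spheres are not given in the sources used here, and the labels of the 2 cultures give the strain of the host mice and do not name the line. RNA of the cultures was purified on RNeasy columns with a DNase step, whereas RNA of the tumors was extracted with TRIzol, so that extraction method and growth in the animal cannot be told apart. Each culture was measured on 1 array, no difference between them has a replicate check, and no test was made.

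Cells held in suspension as spheres lose the stiff, adhesive surface of a culture dish, and cells in the middle of a sphere have less access to oxygen and nutrients. Contact with a stiff surface drives actin stress fibers and, through the serum response factor and YAP and TEAD pathways, the genes of the contractile cytoskeleton and the matrix. Sphere culture is widely used to enrich mammary cells with stem-like properties, and genes of the cell cycle, of stress responses and of differentiation are therefore the groups most often examined in it.

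Values are log2 signals of Affymetrix probe sets after robust multi-array averaging (RMA), a difference is spheres minus monolayer, and 1 log2 unit is a 2-fold difference. Where a gene had several probe sets, the brightest on average in the 26 tissue arrays stood for it, which left 18193 genes, so that the choice of probe set did not use the cultures. The median over all probe sets was 5.03 on the spheres array and 5.00 on the monolayer array. Both cultures and 4 PT carry the same labelled date, and these 4 PT are given apart where it matters.

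The cell label was checked on markers of epithelial and mesenchymal cells. Epcam, an epithelial adhesion molecule, was at 3.98 in the spheres, 5.62 in the monolayer and 7.01 to 13.36 in the PT, with a median of 11.47. Cdh1, which encodes E-cadherin, was at 3.81 and 4.01 in the cultures and at 6.18 to 11.35 in the PT. The simple keratin gene Krt8 was at 4.96 in the spheres and 5.69 in the monolayer, below its range of 7.42 to 11.87 in the PT, whereas Krt18 was at 8.78 and 7.89, within or just under its PT range of 8.22 to 10.24. Vim, the mesenchymal intermediate filament gene, was at 12.15 in the spheres and 12.86 in the monolayer, and Cdh2, which encodes N-cadherin, was at 10.46 and 11.20. On the probe sets used, both cultures were therefore low in the defining epithelial markers other than Krt18 and high in Vim and Cdh2. These values go against a purely epithelial reading of the carcinoma label. The Epcam difference of -1.64 came from 1 of its 2 probe sets and had the opposite sign, 0.074, when the brighter probe set in the cultures was used. Krt8 likewise had another probe set that was brighter in the cultures, and its difference changed from -0.74 to 0.22 there.

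Most markers of macrophages and neutrophils, lymphocytes, endothelium, adipocytes and erythrocytes were low in both cultures, whereas the fibroblast markers Pdgfrb (10.79) and Col3a1 (7.12) were not low in the monolayer. The count at 6 or more in either culture was 4 of 19 for macrophages and neutrophils, 0 of 9 for lymphocytes, 1 of 14 for endothelium, 2 of 8 for adipocytes, 4 of 13 for fibroblasts and 1 of 5 for erythrocytes. A pair of Y-linked genes, used as a reference for low signal, reached 4.12 in the spheres and 3.48 in the monolayer. The summed signal of the 19 macrophage and neutrophil markers was 9.68 in the spheres and 9.32 in the monolayer on the log2 scale, against 12.57 to 14.05 in the PT. The summed signal of the 13 fibroblast markers was 8.98 in the spheres, 11.16 in the monolayer and 12.72 to 14.73 in the PT. In bulk RNA, fewer cells of a type and less RNA per cell cannot be told apart, and the PT hold host cells that the cultures lack.

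Past 2-fold, the spheres differed from the monolayer more often downward than upward, although 9717 genes were above 0 and 8464 below 0 when differences of any size were counted. At a difference of 2-fold or more, 530 genes (2.91% of all genes) were higher in the spheres and 947 (5.21%) were lower, or 8.12% in either direction. At 4-fold the counts were 89 and 238, at 8-fold 23 and 78, and at 16-fold 4 and 21. The median difference over all genes was 0.03, with the 5th and 95th percentiles at -1.02 and 0.78. As a measured scale for single arrays, 0.94% to 6.06% of genes were 2-fold apart between any 2 of the 4 PT of the same labelled date (median 2.52%), 0.83% to 13.57% between any 2 of the 11 PT, 0.98% to 3.10% between any 2 normal mammary glands and 0.79% to 2.39% between any 2 normal lungs. The share between the cultures lay above the range of the same-date PT and inside the range of all PT. PT replicate 5 had 5.28% to 10.7% of genes 2-fold apart from each other tumor, but pairs without it still ranged from 0.83% to 13.57%.

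**Figure D1:**
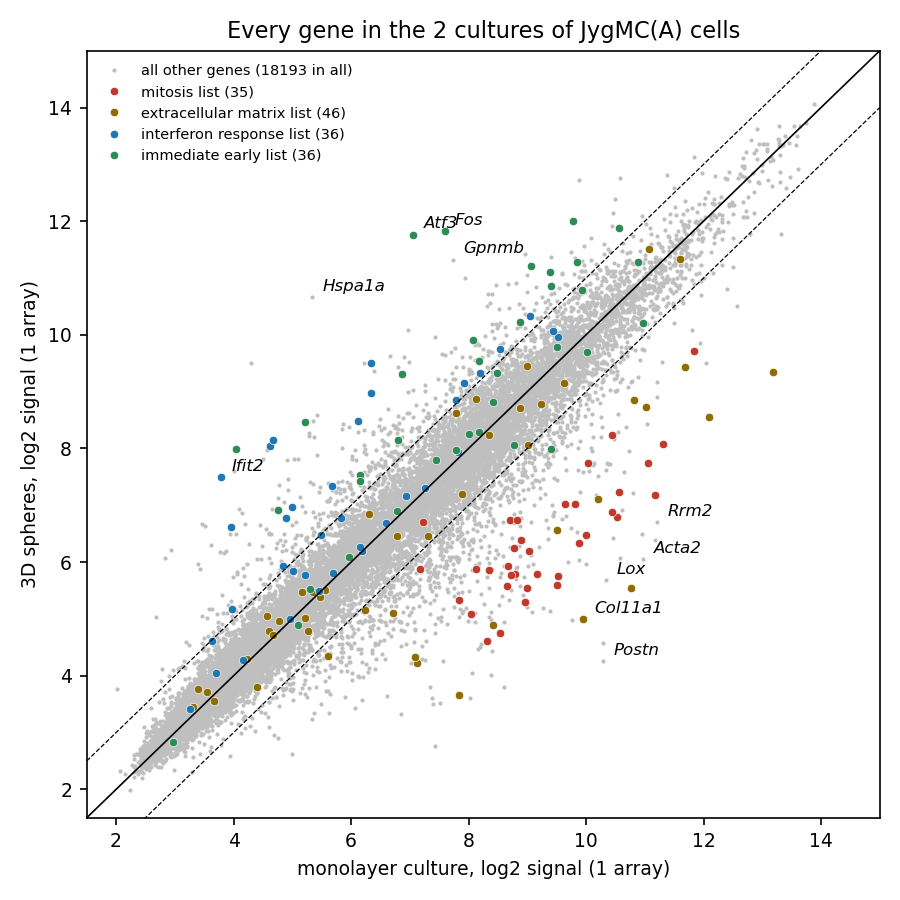
Log2 signal of every gene in the monolayer (horizontal axis) and in the 3D spheres (vertical axis), 1 array each. The solid line marks equal signal and the dashed lines 2-fold differences. Colored points are members of 4 gene lists. On or below the lower dashed line lie 34 of 35 mitosis genes and 16 of 46 matrix genes. On or above the upper one lie 17 of 36 interferon and 18 of 36 immediate early genes.

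Promoters of 6 genes are shown because their gene groups included differences described next and because each holds the sequence element by which its group is commonly known. They are RefSeq sequences of build GRCm38.p6, from 250 bases before to 50 bases after the annotated start, written 5' to 3' on the strand of the gene, with each match to the element in capitals. For each group, members were taken in order of the size of their difference. The gene shown is the first whose first listed promoter held the element and that was not already shown. Genes on a chromosome left out of this choice were passed over, so a member with a larger difference may be missing.
Hspa1a, chr17:34972107-34972406, minus strand, heat shock element: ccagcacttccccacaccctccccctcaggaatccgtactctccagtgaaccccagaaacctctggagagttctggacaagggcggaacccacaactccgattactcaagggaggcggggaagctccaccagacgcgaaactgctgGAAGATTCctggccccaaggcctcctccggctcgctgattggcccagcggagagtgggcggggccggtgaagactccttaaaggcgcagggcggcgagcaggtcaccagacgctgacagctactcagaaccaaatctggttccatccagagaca
Zfp36, chr7:28379179-28379478, minus strand, CArG box: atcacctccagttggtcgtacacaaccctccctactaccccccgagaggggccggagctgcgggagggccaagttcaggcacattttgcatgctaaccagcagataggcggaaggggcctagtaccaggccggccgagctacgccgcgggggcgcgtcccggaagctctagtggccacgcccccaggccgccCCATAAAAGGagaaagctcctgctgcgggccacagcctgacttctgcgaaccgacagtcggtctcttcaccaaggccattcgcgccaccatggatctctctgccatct
Ifit1, chr19:34640639-34640938, plus strand, ISRE: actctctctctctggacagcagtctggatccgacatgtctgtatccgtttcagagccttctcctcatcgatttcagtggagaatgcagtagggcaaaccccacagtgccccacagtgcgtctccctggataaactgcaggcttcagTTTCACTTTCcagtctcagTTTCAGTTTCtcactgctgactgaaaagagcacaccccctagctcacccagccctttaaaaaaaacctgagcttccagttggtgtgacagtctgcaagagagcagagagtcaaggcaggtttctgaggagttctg
Atf3, chr1:191183284-191183583, minus strand, ATF4 element: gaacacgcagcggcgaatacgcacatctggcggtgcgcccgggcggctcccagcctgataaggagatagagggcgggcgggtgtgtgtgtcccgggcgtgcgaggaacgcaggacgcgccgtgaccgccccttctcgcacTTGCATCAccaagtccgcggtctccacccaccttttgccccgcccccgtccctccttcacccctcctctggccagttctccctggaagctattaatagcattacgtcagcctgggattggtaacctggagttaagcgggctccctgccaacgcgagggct
Ccnb2, chr9:70421505-70421804, minus strand, CHR: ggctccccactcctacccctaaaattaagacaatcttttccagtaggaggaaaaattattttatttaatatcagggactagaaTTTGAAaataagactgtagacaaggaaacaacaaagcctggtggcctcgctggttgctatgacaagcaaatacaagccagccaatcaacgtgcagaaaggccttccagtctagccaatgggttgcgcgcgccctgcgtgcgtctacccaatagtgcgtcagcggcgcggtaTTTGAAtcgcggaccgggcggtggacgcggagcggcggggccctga
Myl9, chr2:156775214-156775513, plus strand, CArG box: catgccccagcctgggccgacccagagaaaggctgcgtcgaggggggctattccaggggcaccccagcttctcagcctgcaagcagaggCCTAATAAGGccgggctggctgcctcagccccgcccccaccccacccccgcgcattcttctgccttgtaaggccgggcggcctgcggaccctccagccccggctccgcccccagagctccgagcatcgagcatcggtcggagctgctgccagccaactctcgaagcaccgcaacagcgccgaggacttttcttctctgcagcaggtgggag

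Hspa1a and Atf3 were higher in the spheres by 5.33 and 4.71 log2 units, Ifit1 by 3.44 and Zfp36 by 1.37, while the differences of Ccnb2 and Myl9 were -3.77 and -3.16. Elements were searched on both strands of all 32851 promoters of 300 bases, and none of the matches printed above overlapped a match to another element searched. The CHR, TTTGAA, known from promoters of mitotic genes, was in 24 of 31 promoters of the mitosis list (77.4%) and in 17.9% of all promoters. The interferon-stimulated response element, or ISRE, a pair of GAAA separated by any 2 bases, was in 15 of 30 promoters of the interferon list (50.0%) and in 3.44% of all. The heat shock element, GAANNTTC, was in 12 of 25 promoters of the heat shock list (48.0%) and in 7.86% of all. The ATF4 element, TGATGNAA, was in 14 of 42 promoters of the ATF4 list (33.3%) and in 3.97% of all, and the ER stress element, CCAAT and CCACG separated by any 9 bases, in 10 of 31 promoters of the chaperone list (32.3%) and in 0.119% of all.

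The CArG box, the site of serum response factor, was in 8 of 39 promoters of the contractile list (20.5%), 6 of 28 promoters of the immediate early list (21.4%) and 1.63% of all promoters. These promoters belonged to 8 of 34 contractile genes and to 3 of 23 immediate early genes. The 2 lists differed between the cultures in opposite directions. An E2F site, GCGGGAA, was in 13 of 33 promoters of the DNA replication list (39.4%) against 4.60% of all, and a TEAD site, GGAATG, in 9 of 21 promoters of the YAP and TEAD list (42.9%) against 14.7% of all. The cyclic AMP response element, TGACGTCA, was in 1 of 28 promoters of the immediate early list (3.57%; 1.79% of all), and the sterol element, TCACNCCAC, in 1 of 19 promoters of the cholesterol list (5.26%; 1.24% of all). Among list genes 2-fold apart that had a promoter, the CHR was in 22 of 29, the ISRE in 9 of 12 and the heat shock element in 3 of 4. The ATF4 element was in 2 of 7, the ER stress element in 4 of 8, the E2F site in 9 of 21 and the TEAD site in 3 of 6. The CArG box was in 2 of 11 contractile and 2 of 14 immediate early genes. The cyclic AMP response element was in 0 of 14 and the sterol element in 0 of 6. These matches describe the lists and were chosen for them, and they do not show that a factor was bound.

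The genes of cell division formed the group with the lowest median. Of 35 mitosis genes, 34 were at least 2-fold lower in the spheres and none was higher, with a median difference of -2.96 against 0.03 over all genes. The median difference of the same genes between any 2 of the 4 same-date PT reached 0.26 at most, and 0.65 between any 2 of the 11 PT. The mean of the list ranged from 5.89 to 7.86 across the normal mammary glands. Ccna2, the cyclin of S phase and G2, was at 7.18 in the spheres and 11.17 in the monolayer, a difference of -3.99. Ccnb2, a mitotic cyclin, was at 5.75 and 9.52. Kif20a, a kinesin of cytokinesis, was at 5.60 and 9.50, Aurkb, the kinase of the chromosomal passenger complex, at 4.76 and 8.53, and Ttk, a spindle checkpoint kinase, at 4.62 and 8.31, or a difference of -2.22 over the probe sets of Ttk on average. Mki67, the gene of the Ki-67 proliferation antigen, was at 6.80 in the spheres and 10.53 in the monolayer, 13.3-fold lower in the spheres. The 11 PT lay close to the monolayer for these genes: Mki67 was at 10.50 to 11.24 with a median of 10.67, above both cultures in 9 PT, and Ccna2 was at 10.18 to 11.02 with a median of 10.39. The mitosis gene that did not reach 2-fold was Foxm1, a transcription factor of G2 and mitosis, at -0.51, which is named because it is the exception.

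DNA replication genes followed, with 27 of 34 at least 2-fold lower, none higher and a median of -1.60. Rrm2, a subunit of ribonucleotide reductase, was at 6.70 in the spheres and 11.21 in the monolayer, and its 3 probe sets were each at least 2-fold lower. Tk1, thymidine kinase, was at 5.14 and 9.39, Cdc6, a licensing factor of replication origins, at 4.47 and 8.15, Uhrf1, which keeps up DNA methylation after replication, at 3.79 and 7.35, Mcm5, a helicase subunit, at 7.59 and 10.65, and E2f8, a repressive E2F factor, at 5.03 and 7.83. Outside the list, Pclaf, which binds the PCNA clamp, was at 6.50 and 10.96, and Depdc1a, which acts in mitosis, at 2.77 and 7.43. Averaged over probe sets, the differences were -2.42 for Mcm5, -1.43 for E2f8 and -2.47 for Pclaf. In none of these 8 genes did a PT value come down to the level of the spheres: the lowest PT value was 9.39 for Rrm2, 6.59 for Cdc6, 6.37 for Uhrf1 and 5.49 for Depdc1a.

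Inhibitors of the cycle had a median of 0.10 over 27 CDK inhibitor and p53 target genes, near the 0.03 of all genes. Of the 27, 6 were at least 2-fold higher (22.2%, against 2.91% of all genes) and 2 lower (7.41%, against 5.21%). Cdkn1a, which encodes the inhibitor p21, was at 9.67 in the spheres and 7.55 in the monolayer, and the PT were at 5.92 to 8.43. Trp53inp1 was at 9.53 and 6.98 (1.52 log2 units higher in the mean of its probe sets), Btg2, an antiproliferative gene, at 8.70 and 6.63, Eda2r, a receptor of the TNF family, at 6.06 and 4.47, and Ccng2, an unconventional cyclin of quiescent cells, at 9.57 and 8.17. Cdkn2c, which encodes the inhibitor p18, went the other way, at 8.61 in the spheres and 10.54 in the monolayer. The list of ribosome biogenesis and MYC target genes held no gene 2-fold apart among 30, with a median of 0.04, and the list of mitochondrial respiratory chain genes none among 36, with a median of -0.14.

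**Figure D2:**
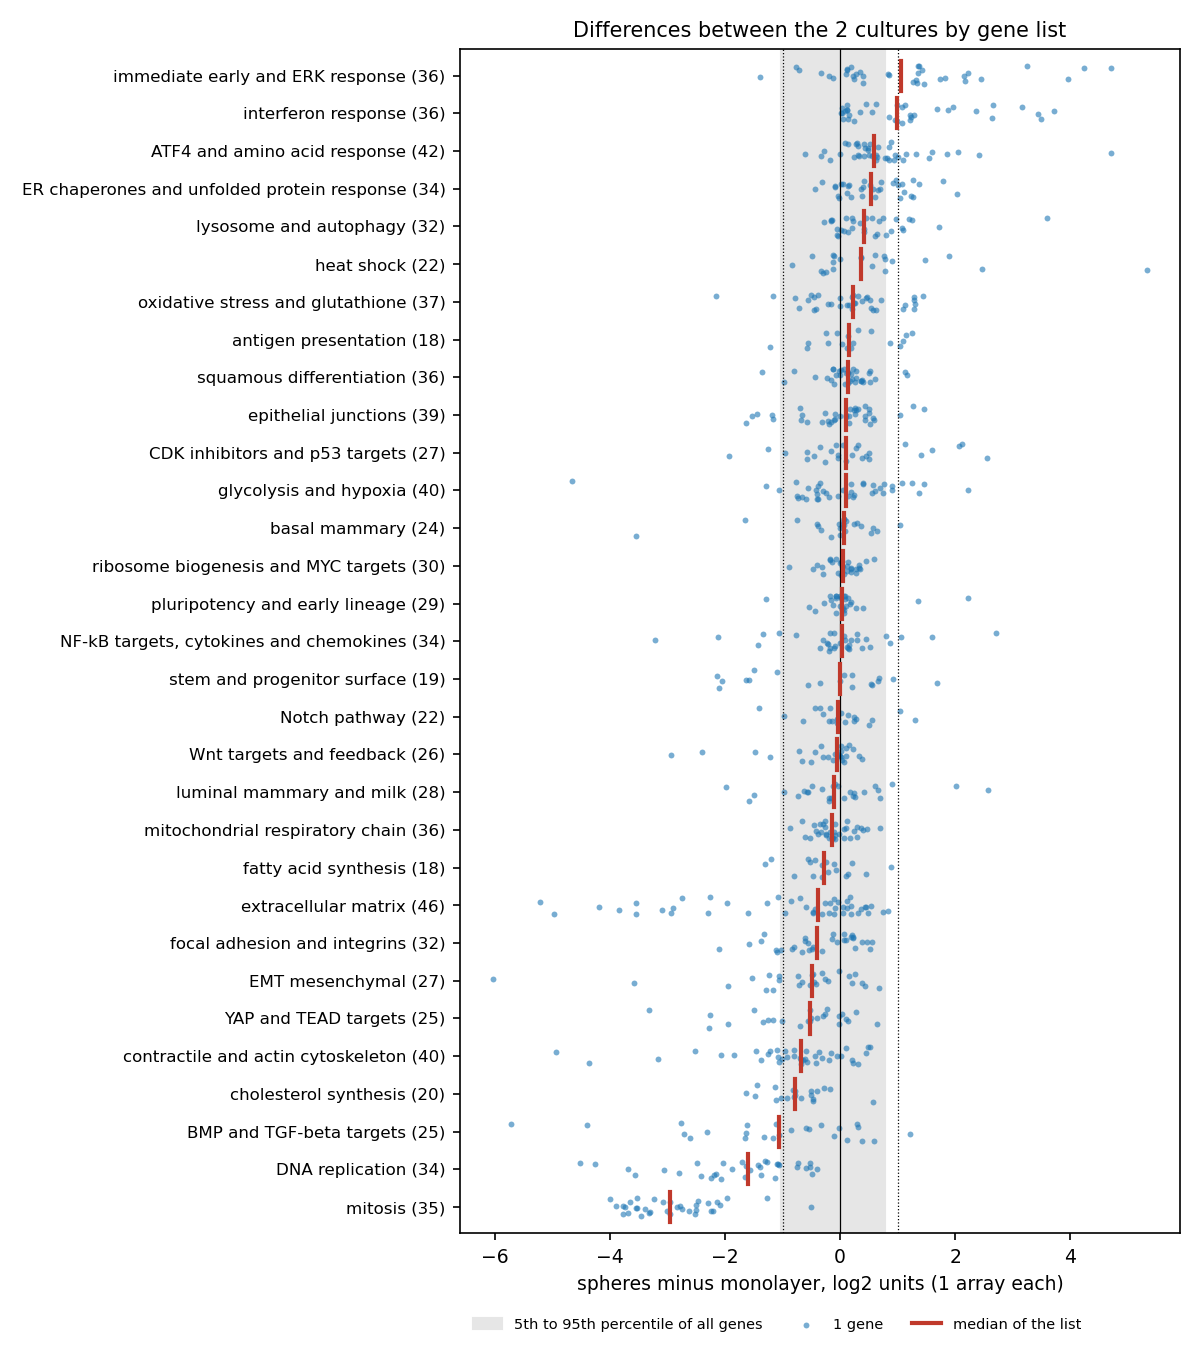
Difference between the cultures (horizontal axis, spheres minus monolayer in log2 units, 1 array each) for each gene (points) of 31 lists, with the number of genes analysed in parentheses, the list median as a red bar and the 5th to 95th percentile of all genes as a gray band. Dotted lines mark 2-fold; the mitosis and DNA replication medians lie at -2.96 and -1.60, and the immediate early and interferon medians at 1.06 and 0.98.

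Contractile genes were lower in the spheres, led by the smooth muscle actins. Of 40 contractile and actin genes, 14 were at least 2-fold lower and none was higher, with a median of -0.68. Acta2, smooth muscle alpha actin, was at 6.05 in the spheres and 10.98 in the monolayer, a 30.5-fold difference seen on 1 of its 3 probe sets at 2-fold or more, while another had the same sign below 2-fold and the remaining one the opposite sign. Actg2, smooth muscle gamma actin, was at 4.02 and 8.38, Myl9, a regulatory myosin light chain, at 4.94 and 8.11, Cald1, caldesmon, at 9.51 and 12.03, Tpm1, a tropomyosin, at 8.00 and 10.08, and Tagln, transgelin, at 5.63 and 7.48. In the mean of their probe sets the differences of Acta2, Cald1 and Tpm1 were smaller, at -1.67, -1.66 and -1.32. The PT spread over the interval between the cultures: Acta2 was at 8.03 to 10.99 with a median of 9.83, Myl9 at 4.94 to 8.11 with a median of 6.94, and Actg2 at 4.81 to 6.91 with 8 of 11 PT nearer the spheres. Tagln was above both cultures in 10 PT, at 6.87 to 9.96. The largest median difference of the contractile list between 2 same-date PT was 0.66, about the size of the difference between the cultures.

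Targets of YAP and TEAD were 2-fold lower in 9 of 25 genes and higher in none, with a median of -0.52, but that median differed by up to 0.87 between 2 same-date PT, more than between the cultures. The members were Birc5, which encodes the mitotic protein survivin, at 7.23 and 10.56, Igfbp3, an IGF binding protein, at 3.35 and 5.62, Thbs1, thrombospondin, at 9.43 and 11.69, Ankrd1 at 5.77 and 7.71, Ajuba, a LIM protein of adherens junctions, at 8.35 and 9.84, and Nuak2, a kinase, at 7.27 and 8.61, with 3 others. Focal adhesion and integrin genes were 2-fold lower in 7 of 32 and higher in none, with a median of -0.39 against up to 0.46 between 2 same-date PT. Itgb3, integrin beta 3, was at 5.53 and 7.63, Tns3, a tensin, at 9.18 and 10.76, Itga1, a collagen-binding integrin chain, at 4.99 and 6.36, and Itgb1, the common beta 1 chain, at 9.20 and 10.29, although only 1 of the 6 probe sets of Itgb1 reached 2-fold, and Itgb1 and Tns3 were under 2-fold in the mean of their probe sets. In that mean the differences of Igfbp3 and Itgb3 were -1.65 and -1.13.

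Matrix genes gave the largest single differences. Postn, periostin, a matrix protein of activated stroma and bone, was at 4.26 in the spheres and 10.29 in the monolayer, 65.5-fold lower in the spheres, and at 12.22 to 13.34 in the 11 PT, all above both cultures. Ltbp2, a microfibril protein, was at 4.58 and 10.29, Smoc2, a matricellular calcium-binding protein, at 3.81 and 8.61, Igfbp7, a secreted IGF binding protein, at 6.38 and 11.17 with 1 of its 3 probe sets past 2-fold, and Lox, the collagen crosslinking oxidase, at 5.69 and 10.35. Of 46 extracellular matrix genes, 16 were 2-fold lower and none was higher, but the median was only -0.38, since most of the others stayed within 2-fold. The collagen genes Col8a1 (5.55 and 10.76), Col11a1 (5.00 and 9.96), Col12a1 (3.66 and 7.84), Col5a2 (9.34 and 13.18) and Col9a1 (4.89 and 8.42) were at least 2-fold lower, together with Sparc, a collagen-binding glycoprotein, at 8.55 and 12.10; Col12a1 was under 2-fold on its probe set that was brightest in the cultures. Averaging of probe sets changed the differences of Igfbp7 to -1.69, Smoc2 to -4.00, Col8a1 to -4.22, Col12a1 to -1.09, Col9a1 to -1.85, Sparc to -2.41, Col11a1 to -5.59 and Col5a2 to -4.65. In the PT, Col11a1 was at 9.47 to 12.03, above both cultures in 10 tumors, and Col9a1, a cartilage collagen, at 9.96 to 13.31, above both in 11.

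The fibroblast markers Pdgfrb, a PDGF receptor at 7.22 and 10.79, and Col3a1, a fibrillar collagen at 4.22 and 7.12, moved with the matrix genes, as did the summed fibroblast marker signal given above; their part in the matrix result was not tested. The mesenchymal list was 2-fold lower in 9 of 27 genes and higher in none, with a median of -0.49. Besides Postn and Pdgfrb these included Mmp2, a gelatinase, at 4.41 and 6.35, S100a4 at 11.78 and 13.31, Snai2, an EMT transcription factor, at 8.46 and 9.74, and Mmp14, a membrane metalloproteinase, at 8.52 and 9.75. The difference of Pdgfrb was -2.65 in the mean of its probe sets, and that of Mmp2 was -1.21 on its probe set brightest in the cultures. The median of this list differed by up to 1.14 between 2 same-date PT, and that of the matrix list by up to 1.28, more than between the cultures.

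BMP and TGF-beta target and feedback genes were 2-fold lower in 13 of 25 and higher in 1, with a median of -1.05 against 0.53 at most between 2 same-date PT. Between any 2 of the 11 PT the median of the list differed by up to 1.44, more than between the cultures. Id1, an inhibitor of basic helix-loop-helix factors and a classical BMP target, was at 7.96 in the spheres and 10.73 in the monolayer, and Id3, of the same family, at 8.16 and 10.48. Fst, the activin antagonist follistatin, was at 3.62 and 8.02, Inhba, which encodes the activin A subunit, at 7.74 and 10.36 with 1 of its 2 probe sets past 2-fold, and Pmepa1, a feedback inhibitor of TGF-beta signaling, at 7.63 and 10.34. The difference was -3.25 for Fst and -1.27 for Inhba when probe sets were averaged, and -2.10 for Fst on its probe set brightest in the cultures. The PT were nearer the spheres in 11 of 11 for Id1, at 6.24 to 9.19, and for Id3, at 5.64 to 9.21, whereas Pmepa1 was nearer the monolayer in 10 of 11.

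The largest differences toward the spheres included stress and immediate early genes. Immediate early genes are transcribed within minutes of a stimulus without new protein synthesis, and many respond to ERK, to stress kinases and to the handling of cells. Of 36 such genes, 18 were at least 2-fold higher in the spheres and 1 lower, with a median of 1.06 against at most 0.34 between 2 same-date PT. Atf3, a stress-induced repressor, was at 11.77 in the spheres and 7.06 in the monolayer, 26.1-fold higher. Fos and Fosb, subunits of the AP-1 factor, were at 11.83 and 8.00 in the spheres and at 7.59 and 4.04 in the monolayer. Dusp4, a phosphatase of ERK and JNK, was at 8.46 and 5.21, Klf2 at 9.31 and 6.87 and Klf4 at 12.01 and 9.78, both zinc finger factors. The lower member was Phlda1 at -1.40, named because it is the exception. The PT were nearer the monolayer in 11 of 11 by the mean of the list. Fos was at 8.73 to 10.14 in the PT, above the monolayer and below the spheres in each tumor, and Fosb at 3.43 to 3.93, below both cultures in 11. The time between harvest and lysis of either culture is not given in the sources used here, and its part in these differences was not tested.

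Heat shock genes gave the largest difference toward the spheres, but the list as a whole did not follow. Hspa1a, the inducible Hsp70 chaperone, was at 10.67 in the spheres, 5.34 in the monolayer and 5.53 to 8.94 in the PT, with a median of 7.18. Of 22 genes 4 were 2-fold higher and none lower, with a median of 0.36. The other members were its neighbor Hspa1b at 12.38 and 10.50, the small heat shock protein Hspb1 at 11.43 and 8.96 and the Hsp40 cochaperone Dnajb1 at 11.07 and 9.59. Hspa1a and Hspa1b are near-identical copies, and their probe sets may share signal.

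Genes of ATF4 and amino acid stress were 2-fold higher in 10 of 42 and lower in none, with a median of 0.59. That median differed by up to 0.10 between 2 same-date PT and by up to 0.49 between any 2 of all PT. Atf3, given above, had the largest difference of this list and counts in the immediate early list too. Trib3, a pseudokinase, was at 10.88 and 8.47, Ppp1r15a, the phosphatase subunit that restores translation, at 9.65 and 7.60, Slc6a9, a glycine transporter, at 9.12 and 7.25, Cth, of cysteine synthesis, at 9.32 and 7.73, and Slc3a2, the heavy chain of amino acid transporters, at 11.35 and 9.81. Chaperones of the endoplasmic reticulum and unfolded protein response genes were 2-fold higher in 10 of 34 and lower in none, with a median of 0.54. Derl3, of protein degradation from the reticulum, was at 8.52 and 6.49, Dnajb9, a cochaperone, at 10.47 and 8.68, Atf6, a stress sensor, at 9.07 and 7.70, Syvn1, a ubiquitin ligase, at 10.16 and 8.88, Sdf2l1 at 10.61 and 9.35, and Hyou1, an Hsp70 relative, at 11.13 and 9.91. For the ATF4, chaperone and heat shock lists, the mean of the members was below both cultures in 11 of 11 PT. Trib3 was at 7.17 to 8.20 in the PT and Hyou1 at 9.29 to 9.73, below both cultures in each.

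Of 37 oxidative stress genes, 7 were 2-fold higher (18.9%, against 2.91% of all genes) and 2 lower (5.41%, against 5.21%), with a median of 0.22. The metallothioneins Mt1 (13.13 and 11.84) and Mt2 (12.82 and 11.37) and Gclc, of glutathione synthesis (9.82 and 8.54), were higher, as were the glutathione transferases Gstm1 (6.21 and 4.90) and Mgst1 (6.76 and 5.48), while the extracellular superoxide dismutase Sod3 was lower, at 6.18 and 8.35. Gstm1 and Mgst1 were under 2-fold in the mean of their probe sets. Prxl2a, a peroxiredoxin-like protein and the gene with the second highest difference, was at 9.50 and 4.31, but 1 of its 3 probe sets had the opposite sign and their mean difference was 3.18. Glycolysis and hypoxia genes had a median of 0.10. Of 40 such genes, 5 were higher (12.5%, against 2.91% of all genes) and 3 lower (7.5%, against 5.21%). Ndrg1 was at 10.90 and 8.67 on a group of 5 probe sets that each passed 2-fold, Hk2, hexokinase, at 9.13 and 7.68, and Adm, adrenomedullin, at 7.93 and 6.68, against Lox and the collagen hydroxylase Plod2 (9.23 and 10.51), which were lower. Lysosome and autophagy genes were 2-fold higher in 6 of 32 and lower in none, with a median of 0.42: Gpnmb, a lysosomal glycoprotein, was at 11.32 and 7.73, and Sqstm1, the autophagy receptor p62, at 11.47 and 9.75.

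Genes of the interferon response were higher in the spheres in each of the 36 members, 17 of them by 2-fold or more, with a median of 0.98. The median of the list differed by up to 0.81 between 2 same-date PT. Between any 2 of the 11 PT it differed by up to 1.75, more than between the cultures. Ifit2 and Ifit1, interferon-induced proteins that act on viral RNA, were at 7.50 and 8.05 in the spheres and at 3.79 and 4.61 in the monolayer. Iigp1 and Igtp, immunity-related GTPases, were at 8.16 and 8.98 against 4.67 and 6.34, Cxcl10, a chemokine, at 9.51 against 6.34, and Usp18, the protease that removes ISG15, at 6.62 against 3.96. In the PT, Iigp1 was at 6.37 to 10.77 with a median of 9.50, above both cultures in 8 tumors, and Ifit2 at 5.15 to 7.43 with a median of 6.94, between the cultures in all 11. The PT were nearer the spheres in 11 of 11 by the mean of the list, and 9 were above both cultures; the PT also hold host immune cells, as the macrophage markers above show, and their part was not tested. Of 18 antigen presentation genes, 4 were 2-fold higher (22.2%, against 2.91% of all genes) and 1 lower (5.56%, against 5.21%), with a median of 0.16. Higher were the class I genes H2-K1 (11.22 and 9.97) and H2-D1 (1.05 log2 units higher). The peptide transporter Tap1 (6.24 and 5.15) and the class I activator Nlrc5 (5.14 and 3.98) were also higher. H2-K1, H2-D1 and Tap1 were under 2-fold in the mean of their probe sets. Of 34 classical NF-kB targets, cytokines and chemokines, 3 were 2-fold higher (8.82%) and 5 lower (14.7%), with a median of 0.03. Saa3, an acute phase protein, was at 9.61 and 6.90, but the neutrophil chemokine Cxcl3 was at 5.50 and 8.73. The cytokine Lif was at 4.95 and 7.07, a difference of -1.10 in the mean of its probe sets.

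Cholesterol synthesis genes were 2-fold lower in 6 of 20 and higher in none, with a median of -0.78. These were Nsdhl (8.05 and 9.68), Idi1 (9.02 and 10.50), Ebp (8.79 and 10.24), Lss (7.20 and 8.33), Hsd17b7 (7.24 and 8.36) and Dhcr7 (8.17 and 9.19), enzymes of successive parts of the pathway, and the mean of the list was lower still in 11 of 11 PT. Lss and Hsd17b7 were under 2-fold in the mean of their probe sets, and Dhcr7 after centring or quantile normalization of the arrays. Fatty acid synthesis genes were lower in 2 of 18 (11.1%, against 5.21% of all genes), with a median of -0.29. The lower genes were the desaturases Scd2 (11.19 and 12.50) and Fads2 (8.29 and 9.50).

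Differentiation lists had medians near 0, but most of their members were below 6 in both cultures. Those at 6 or more in either culture were 8 of 28 luminal, 7 of 24 basal, 10 of 39 junction and 8 of 36 squamous genes. The shares 2-fold higher and lower were 7.14% and 10.7% for luminal, 4.17% and 8.33% for basal genes. They were 7.69% and 12.8% for junction and 5.56% and 2.78% for squamous genes, against 2.91% and 5.21% of all genes. Luminal and milk genes were 2-fold higher in 2 of 28 and lower in 3, with a median of -0.11: the casein gene Csn3 was at 5.97 and 3.40 on 1 of its 2 probe sets (mean difference 1.19), and Xdh, which takes part in milk fat secretion, at 8.99 and 6.97, but the keratin gene Krt7 was at 4.05 and 6.02, Aldh1a3 at 4.25 and 5.83 and Cd24a at 8.60 and 10.09. Basal genes were higher in 1 of 24 and lower in 2, with a median of 0.06, and the 2 lower members were Sparc and the EGF receptor gene Egfr (6.34 and 7.99, with 1 of 7 probe sets past 2-fold). Epithelial junction genes were higher in 3 of 39 and lower in 5, with a median of 0.11; F11r, which encodes the junctional molecule JAM-A, was at 8.89 and 7.43, and the desmosomal cadherin gene Dsg2 at 4.32 and 5.76. Squamous genes were higher in 2 of 36 and lower in 1, with a median of 0.14. In the mean of their probe sets Aldh1a3, Egfr, F11r and Dsg2 were under 2-fold. The 11 PT were above both cultures by the mean of the luminal, basal and junction lists; these means were 5.68, 5.44 and 5.22 in the spheres and 5.72, 5.57 and 5.25 in the monolayer.

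Genes often used to mark stem cells differed by list. Of 29 pluripotency and early lineage genes, Klf4 and Myc (9.54 and 8.19) were 2-fold higher and Sox2 (4.55 and 5.84) was lower, with a median of 0.04. These shares were 6.9% and 3.45%, beside 2.91% and 5.21% of all genes, and only 8 of the 29 reached 6 in either culture. Of 19 stem and progenitor surface genes 1 was higher (5.26%), Alcam, a cell adhesion molecule at 8.41 and 6.72. Another 7 were lower (36.8%, against 5.21% of all genes), although the median was 0.0007. Among the lower genes were the aldehyde dehydrogenase gene Aldh1a1 (5.78 and 7.92), the transporter gene Abcg2 (4.91 and 6.95), Itgb3 and Cd24a. Tfcp2l1, a factor of naive embryonic stem cells that was among the 15 largest differences and not on a list, was at 7.60 and 4.01, with 1 of its 3 probe sets past 2-fold and the other two of the same sign (mean difference 1.47). In the Notch pathway 2 of 22 genes were higher (9.09%, against 2.91% of all genes) and 1 lower (4.55%, against 5.21%), with a median of -0.04. The ligand gene Jag1 was at 8.21 and 7.17 and the target gene Nrarp at 7.03 and 5.73. The target gene Hes1 was at 6.49 and 7.89. Jag1 and Nrarp were under 2-fold in the mean of their probe sets. Of 26 Wnt targets and feedback genes 4 were lower (15.4%, against 5.21% of all genes) and none was higher, with a median of -0.06. Ccn4, also known as WISP1, was at 6.12 and 9.06 and the ligand Wnt10a at 7.71 and 10.11.

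**Figure D3:**
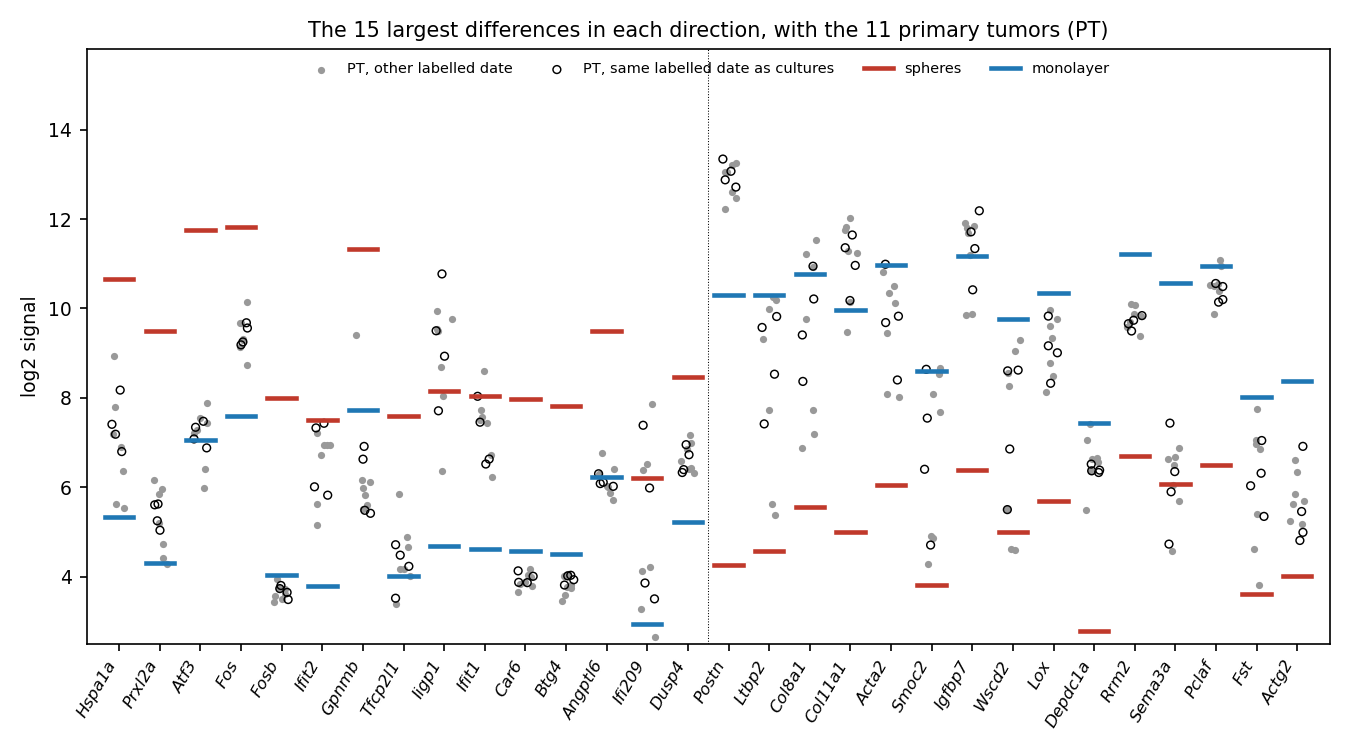
Log2 signal (vertical axis) of the 15 genes with the largest differences in each direction, with the spheres as red bars, the monolayer as blue bars and the 11 primary tumors as points, open where the labelled date is that of the cultures. Postn lies above both cultures in all 11 tumors, Fosb, Car6 and Btg4 lie below both, and the tumors lie between the cultures for Rrm2, Lox and Fos.

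The largest differences that belonged to no list above were of mixed function. Higher in the spheres were Car6, a secreted carbonic anhydrase (7.98 and 4.57), Btg4, of the antiproliferative BTG family (7.81 and 4.51), Angptl6, a secreted angiopoietin-like factor (9.50 and 6.22), and Ifi209, an interferon-inducible gene (6.21 and 2.93). In the PT, Car6 was at 3.64 to 4.17, Btg4 at 3.46 to 4.05 and Angptl6 at 5.71 to 6.76, so that the level of these 3 genes in the spheres was not reached in any tumor. Ifi209 was at 2.65 to 7.85 in the PT, above the spheres in 4 tumors. Lower in the spheres were Wscd2 (4.99 and 9.75) and Sema3a, a secreted guidance factor (6.07 and 10.58). The PT were at 4.58 to 7.43 for Sema3a, nearer the spheres in 11 of 11.

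The primary tumors lay between or beyond the cultures in ways that depended on the gene group. Of the 530 genes that were 2-fold higher in the spheres, the PT mean was beyond the spheres for 99, nearer the spheres for 122, nearer the monolayer for 171 and beyond the monolayer for 138, so that 41.7% lay on the side of the spheres. Of the 947 lower genes the counts were 117, 203, 415 and 212, and 33.8% lay on the side of the spheres. With the 4 PT of the same labelled date the shares were 42.1% and 34.6%, and without PT replicate 5 they were 41.9% and 32.8%. Among single tumors the share ranged from 37.9% to 47.2% for the higher genes and from 26.7% to 44.0% for the lower genes. Each of the 11 tumors was thus nearer the monolayer for more than 50% of the genes of either set. With every array centred on its median, however, the shares were 34.2% and 44.0%, and with probe sets averaged per gene they were 38.4% and 39.3%, so that their order turned under both settings.

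By list means, the tumors were with the monolayer in proliferation. The mitosis mean was 6.40 in the spheres, 9.30 in the monolayer and 8.57 to 9.14 in the PT, and the DNA replication mean was 7.11, 8.91 and 8.16 to 8.87, each with 11 of 11 PT nearer the monolayer. The immediate early mean was 8.94 in the spheres, 7.83 in the monolayer and 7.77 to 8.28 in the PT. The contractile mean was 7.80, 8.70 and 7.77 to 8.82, with 8 PT nearer the monolayer and 3 nearer the spheres, and the BMP and TGF-beta mean was 6.53, 7.72 and 6.60 to 7.88, with the same split. The tumors were beyond the monolayer in the matrix mean, 6.40 and 7.44 in the cultures against 7.80 to 9.51, and beyond the spheres in the cholesterol mean, 8.46 and 9.20 against 7.58 to 8.15. They were below both cultures in the ATF4 mean (9.34, 8.59 and 7.98 to 8.36), the chaperone mean (10.72, 10.13 and 9.49 to 9.96) and the heat shock mean (10.54, 9.92 and 9.12 to 9.90). They were nearer the spheres in the interferon mean (7.11, 5.94 and 6.54 to 8.30).

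**Figure D4:**
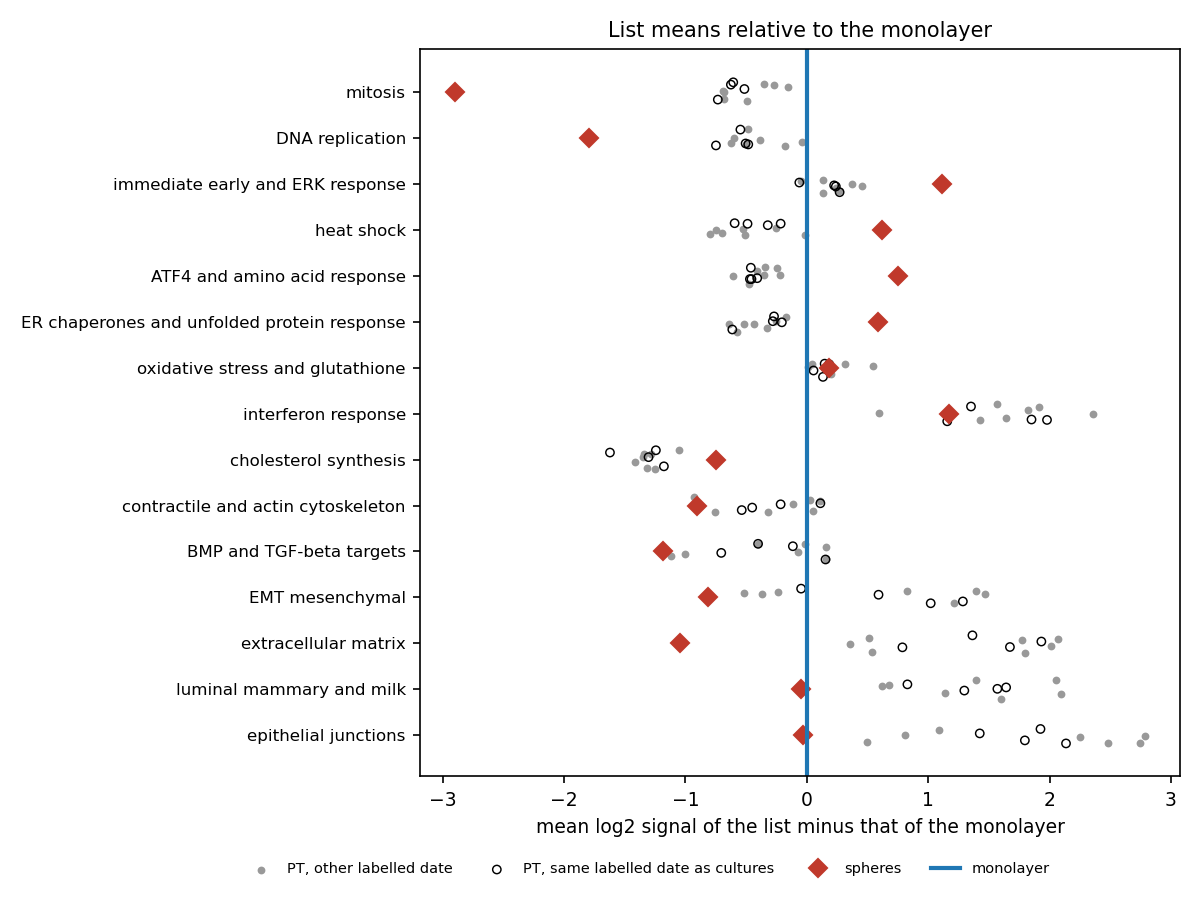
Mean log2 signal of each list minus that of the monolayer (horizontal axis), for the spheres (red diamonds) and each of 11 primary tumors (points, open where the labelled date is that of the cultures); the blue line is the monolayer. The tumors sit near the monolayer and away from the spheres for mitosis and DNA replication, below both cultures for the 3 chaperone and amino acid stress lists, and above both for the matrix, luminal and junction lists.

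Few genes had all tumors outside the interval of the cultures on 1 side at a 4-fold difference. Among the genes 4-fold lower in the spheres, 8 were at or above the monolayer in all 11 PT, and they were Postn, Col9a1, Col3a1, Bgn, Wwp2, Nebl, Igfbp3 and Cenpp, while Gxylt2 and Slc24a3 were at or below the spheres in all 11. Among the genes 4-fold higher in the spheres, Fosb, Car6, Btg4 and Trib3 were at or below the monolayer in all 11 PT, and Glul, glutamine synthetase, and Bach2 were at or above the spheres. Those of these genes that are not described above were named after their values were seen.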

How the data were processed

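RNA was labelled with an Affymetrix 3' IVT kit and hybridized to 1 array per sample. The deposited values are log2 signals of 45101 probe sets, which the authors normalized by RMA in Partek, per the submitters' processing notes and the study's methods; RMA equalizes the distributions of arrays, so a shift shared by most genes would be removed. Scanner files and detection calls were not used here, and the precision is limited by 1 array per culture.

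Probe sets were named from the platform annotation: 34945 had 1 gene symbol and were used, and 932 with several symbols were left out. Groups were taken from the source names. Differences, list counts and list medians were computed with Python 3.11.15, pandas 2.3.3 and statsmodels 0.14.6, and the scripts were tested on simulated data. A gene was counted at 1 log2 unit (2-fold) or more. Named genes were the 15 largest differences in each direction among genes at 6 or more in either culture, up to 6 members of each of 38 lists at 2-fold or more by size, and 8 fixed genes; exceptions are marked where they occur. The members and lists were chosen with earlier results of these data known, and 4 further lists were chosen after the values were seen. The spread used to judge the alternatives was the root mean square difference between pairs of the 4 PT of the same labelled date; it was chosen after the normal mammary glands, considered first, were seen to vary in mitosis genes. Alternatives were other choices of probe set, a filter on low values, 3 rescalings, other thresholds and subsets of PT.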

Additional observations from a re-analysis of the deposited data

How the results depend on the processing

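No paired analysis was possible because each culture has 1 array. Nothing here carries a p-value, and 1 array per culture cannot separate the growth condition from the single dish. At a threshold of 1.5-fold 1585 genes were higher and 2025 lower in the spheres, and at 4-fold 89 and 238; with probe sets averaged per gene the 2-fold counts were 372 and 694, and under the other 5 alternatives 453 to 604 and 836 to 942. No rescaling moved the share of higher genes by over 10 percentage points (35.9% against 35.4% to 41.3%) or the median of all genes by over 0.1. Of 242 recomputed list medians 221 moved by no more than the spread between same-date PT, and none changed sign where the median exceeded that spread. With the mean of probe sets the median was -2.29 for mitosis, -1.38 for DNA replication, 0.85 for immediate early genes, 0.49 for ATF4, 0.24 for heat shock, 0.011 for Notch, 0.52 for FoxO targets, 0.99 for glucocorticoid targets and 0.28 for ribosomal proteins. With only genes at 6 or more in either culture, which leaves fewer genes, it was 1.32 for immediate early genes, -0.20 for glycolysis and hypoxia, 0.41 for luminal and milk genes, 0.21 for pluripotency, -0.14 for stem and progenitor surface genes, -0.47 for Wnt, -1.47 for BMP and TGF-beta, -1.99 for fibroblast markers, 1.03 for FoxO targets and 1.52 for glucocorticoid targets. The pluripotency median was -0.023 after the lowess correction and the Notch median 0.050 after quantile normalization. Among 165 named genes, Epcam turned from -1.64 to 0.074 and Vcam1 from -1.43 to 0.54 with the probe set brightest in the cultures. Of 160 named genes that were 2-fold apart, 24 were under 2-fold with the mean of probe sets, 8 with the brightest probe set, and at most 1 after rescaling. Of 825 recomputed differences of named genes, 51 moved by more than the spread between same-date PT besides the 2 that turned. A turn was counted only for genes 2-fold apart. Krt8, under 2-fold, also changed sign, from -0.74 to 0.22, with the probe set brightest in the cultures. By 1.5-fold or more, 41 genes moved with the mean of probe sets, of which 25 stayed 2-fold apart in the same direction, and 10 genes moved with the brightest probe set. The share of genes higher in the spheres for which the PT lay on their side was 38.4% with the mean of probe sets and 34.2% after centring of every array, and that of the lower genes 39.3% and 44.0%, so that the order of the shares turned under both. The causes were not tested. Weak signals near background limit the differences of genes below 6 in both cultures.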

Other observations

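A further 4 groups of genes were listed after the largest differences had been seen, so their counts describe that choice and are no independent evidence. Of 24 targets of FoxO factors, which act when growth factor signaling is low, 12 were at least 2-fold higher in the spheres and 1 lower, with a median of 0.81. Bcl2l11, which encodes the proapoptotic protein BIM, was at 8.30 in the spheres and 6.12 in the monolayer, Txnip, an inhibitor of glucose uptake, at 8.32 and 6.50, and Irs2, an insulin receptor substrate, at 7.59 and 5.98, whereas Tnfsf10, which encodes the death ligand TRAIL, was at 4.24 and 6.19. Txnip was at 9.31 to 9.88 in the PT, above both cultures in 11 of 11. Of 17 glucocorticoid targets, 9 were 2-fold higher and none lower, with a median of 1.29, and 17 of 17 were above 0. Tsc22d3, the leucine zipper gene GILZ, was 3.05 log2 units higher, Fkbp5 at 10.53 and 8.87, the clock gene Per1 at 7.91 and 6.25, and Sgk1 at 11.57 and 9.96. The PT were nearer the spheres in 11 of 11 by the mean of either list. For the glucocorticoid list that mean was 9.33 in the spheres, 8.16 in the monolayer and 8.76 to 9.28 in the PT. Of its 9 members 2-fold apart, the PT mean was beyond the spheres for 2, nearer the monolayer for 6 and beyond the monolayer for 1. Several members of these lists are also immediate early, p53 or metal response genes.

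Of 16 host genes of small nucleolar RNAs, transcripts that are spared from decay when translation slows, 6 were 2-fold higher and 1 lower, with a median of 0.74, which was below the 0.77 by which 2 same-date PT differed at most. Gas5 was at 12.72 in the spheres and 9.88 in the monolayer, with 2 of its 4 probe sets past 2-fold, Snhg12 at 10.71 and 8.41 and Zfas1 at 11.05 and 8.99, while Snhg3 was at 7.30 and 9.21. Of 48 ribosomal protein genes 3 were 2-fold higher (6.25%, against 2.91% of all genes) and none lower, with a median of 0.19. The PT were nearer the spheres in 11 of 11 by the mean of both of these lists.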
